A study of Homo sapiens with 40 samples.

Results

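The collagen chain genes encode the alpha chains that wind together into the triple helices of collagen. They were taken here as every gene whose symbol is COL, a number, A and a number and which is the only gene annotated to a probe set, a group of short array probes that report 1 transcript. This gave 43 genes on 45 probe sets, of 18417 genes that could be named in the same way on 33297 probe sets. All 43 were kept, and no filter on dim signals was applied. RNA came from MDA-MB-231, an established human breast cancer cell line, and was measured on 40 Affymetrix whole-transcript arrays, 4 per group. Subconfluent cultures were exposed to zoledronate or fluvastatin, or only to the solvent as control cells. In lot I, cells received zoledronate at 30 µM, fluvastatin at 2 µM or solvent for 12 h, and the same 3 conditions ran for 24 h. In lot II, cells received zoledronate at 30 µM or solvent for 48 h, and other cells received zoledronate at 100 µM or solvent for 24 h. The labels do not say what a lot is. All 48 h and all 100 µM arrays were in lot II and all other treated arrays in lot I, so lot cannot be told apart from the longer time or the higher dose except through the controls of the same lot. The groups share the cell line and its serum-containing medium, and the design text calls the 4 replicates independent and paired by day of measurement.

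Collagens are the main structural proteins of the extracellular matrix. Fibrillar collagens such as type I build ropes, type IV builds the mesh of basement membranes, type VI builds beaded microfilaments around cells, type VII anchors epithelia to the tissue below, and the FACIT collagens (fibril-associated collagens with interrupted triple helices) decorate the surface of fibrils. Zoledronate, a nitrogen-containing bisphosphonate, inhibits farnesyl diphosphate synthase, and fluvastatin, a statin, inhibits the HMG-CoA reductase upstream of it, so that both act on the mevalonate pathway, which feeds sterol synthesis and protein prenylation. In tumours much of the fibrillar collagen is made by fibroblasts, but carcinoma cells also transcribe collagen genes of their own.

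The arrays had like overall brightness, with medians over all probe sets between 6.20 and 6.33 on the log2 scale. The mesenchymal and keratin markers of the line were bright, with VIM at 12.25, CD44 at 11.10, KRT18 at 11.66 and KRT8 at 11.43, while ESR1 at 4.93, PGR at 4.68 and CDH1 at 4.78 lay low and ERBB2 at 7.89 did not. Of 10 fibroblast markers, 5 lay above the background level defined below, namely PDGFRB at 6.09, THY1 at 5.55 and 3 collagen chains. PDGFRA at 4.78 lay under it, and DCN at 3.41, LUM at 3.06, FAP at 3.64 and POSTN at 3.47 lay far under it. None of the 3 measured blood cell markers and 2 of 5 endothelial markers (PECAM1 at 5.93, KDR at 6.57) lay above it.

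Most chains gave a dim signal in this cell line. Background was read from 341 olfactory receptor genes, which a breast cancer cell is not thought to use, and the 95th percentile of their mean signals was 5.46. By that mark 27 chains were expressed and 16 were near background. Of all 18417 named genes, 13544 lay above the same mark, a larger share than among the chains. Above the median of all genes, 6.99, stood 12 chains. The brightest was COL13A1, a collagen that spans the cell membrane, with a mean of 9.11 over all 40 arrays. Next came the type VI chains COL6A1 at 8.80 and COL6A2 at 8.48, the basement membrane chain COL4A2 at 8.23, COL18A1, the source of endostatin, at 7.75, the FACIT chain COL12A1 at 7.60, COL9A3 at 7.48, COL4A1 at 7.46, COL7A1 of the anchoring fibrils at 7.42, and the fibrillar chains COL1A1 at 7.30, COL27A1 at 7.13 and COL5A1 at 7.11. Signals of different probe sets are not levels per length, so this is an order of probe set brightness only.

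Between the background mark and the median of all genes lay 15 chains, among them COL6A3 at 6.57, COL1A2 at 6.04 and COL3A1 at 6.03. Nearest to the mark were COL15A1 at 5.62 and COL8A1 at 5.54 inside it, and COL4A6 and COL4A5, both at 5.38, outside it. The 16 chains near background ran down to COL6A5 at 3.55 and included COL5A2 at 5.32, COL11A1 at 4.71 and COL10A1 at 4.63. The mark depends on the genes chosen for it. Against 67 keratin-associated protein genes, a family picked after the data had been seen, the 95th percentile was 7.93 and only 4 chains, COL13A1, COL6A1, COL6A2 and COL4A2, lay above it. The part that base composition of the probes plays in these levels was not tested. COL11A2 had 3 probe sets, of which the brightest, at 6.92, was used, and the others were identical to each other at 5.75.

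**Figure D1:**
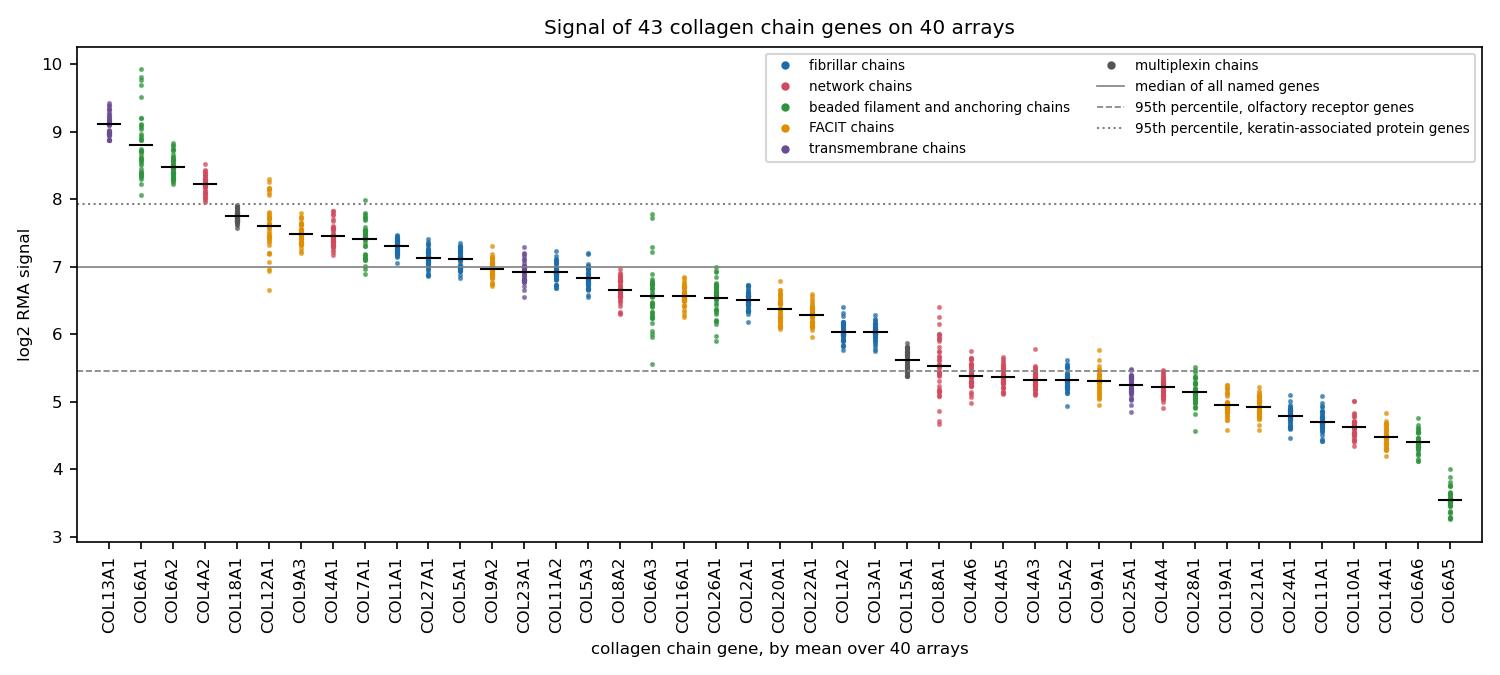
Log2 RMA signal (vertical axis) of 43 collagen chain genes (horizontal axis, ordered by mean), 1 point per array and 40 arrays per gene, coloured by collagen class, with a black bar at the mean. The grey lines give the median of all named genes (6.99) and the 95th percentiles of olfactory receptor genes (5.46) and of keratin-associated protein genes (7.93), and the points of COL6A1, COL6A3, COL8A1 and COL12A1 spread widest.

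The chains differed in how much they moved over the 40 arrays. The standard deviation over all arrays was 0.46 for COL6A1, 0.43 for COL6A3, 0.40 for COL8A1, 0.38 for COL12A1 and 0.25 for COL7A1, and it was 0.08 for COL18A1 and 0.10 for COL1A1. Part of that spread lay among the controls. Control COL12A1 averaged 8.16 in lot II and 7.58 in lot I at 24 h, and control COL8A1 averaged 6.14 in lot II and 5.62 in lot I. Control COL6A3 averaged 6.82 at 12 h in lot I, where replicate 1 had 7.78 and the others had 6.27 to 6.74. Each effect below is therefore a difference between treated and control arrays of the same lot, time and replicate number, fitted with limma over all genes, with Benjamini-Hochberg adjusted p and a threshold of 0.05.

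Some chains whose genes differed after treatment are introduced here with the DNA before their starts, since 31 of the 43 genes had an entry in RefSeq's promoter table (build GRCh38.p14), COL6A2, COL6A3 and COL12A1 among them. COL6A1 and COL8A1 had no entry, and those of COL7A1, COL13A1, COL15A1 and COL25A1 are not shown. The 250 bases before each start are shown 5′ to 3′ on the strand of the gene, at chr21:46097862-46098111 (plus strand) for COL6A2, chr2:237414165-237414414 (minus strand) for COL6A3 and chr6:75206054-75206303 (minus strand) for COL12A1. The 126 bases between the starts of the basement membrane genes COL4A1 and COL4A2, which run in opposite directions, are at chr13:110307158-110307283. They are shown on the plus strand as the example of a pair without a call. Capitals mark matches, on either strand, to GGGCGG (the GC box bound by SP and KLF factors), GGAATG (the core of TEAD sites), ACGTG (a core shared by hypoxia response elements and some E-boxes) and TATAAA (the TATA box).
COL6A2: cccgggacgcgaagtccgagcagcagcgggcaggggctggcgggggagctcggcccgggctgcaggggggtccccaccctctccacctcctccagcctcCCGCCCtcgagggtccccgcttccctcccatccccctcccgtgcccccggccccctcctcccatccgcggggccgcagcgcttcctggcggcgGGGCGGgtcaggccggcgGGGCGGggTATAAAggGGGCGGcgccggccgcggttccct
COL6A3: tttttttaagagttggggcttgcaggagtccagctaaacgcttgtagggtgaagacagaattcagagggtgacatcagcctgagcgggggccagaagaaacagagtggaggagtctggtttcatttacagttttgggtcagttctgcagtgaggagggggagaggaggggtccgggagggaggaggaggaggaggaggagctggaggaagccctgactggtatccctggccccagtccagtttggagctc
COL12A1: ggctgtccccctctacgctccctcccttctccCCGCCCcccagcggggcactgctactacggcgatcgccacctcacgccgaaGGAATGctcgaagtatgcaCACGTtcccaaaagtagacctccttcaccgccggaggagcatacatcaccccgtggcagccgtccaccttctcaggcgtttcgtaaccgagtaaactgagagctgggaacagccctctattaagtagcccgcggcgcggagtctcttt
COL4A1-COL4A2: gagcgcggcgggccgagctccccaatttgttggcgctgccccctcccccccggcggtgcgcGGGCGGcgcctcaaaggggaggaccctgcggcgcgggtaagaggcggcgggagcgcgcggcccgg

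The COL6A2 window held 4 GC boxes and 1 TATA box, and the COL6A3 window held none of the 4 words. The COL12A1 window held 1 GGAATG, 1 ACGTG and 1 GGGCGG. The stretch between COL4A1 and COL4A2, shorter than the windows, held 1 GGGCGG. Windows of COL18A1 and COL8A2, chains without a call, held 9 and 7 GGGCGG. Over 35116 windows of 250 bases in the same table, 42.6% held GGGCGG, 11.9% GGAATG, 18.5% ACGTG and 10.7% TATAAA. The 31 chain genes with an entry had 43 windows, up to 4 per gene. Of these windows 24 (55.8%) held GGGCGG, 3 (7.0%) GGAATG, 7 (16.3%) ACGTG and 7 (16.3%) TATAAA. The median share of G and C was 64.4% in the chain windows and 58% in all windows. A match is a description of the letters and not a binding site.

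No chain passed the threshold after zoledronate at 30 µM for 12 h or for 24 h, where 0 of 18417 genes did (0% called in limma). At an unadjusted p under 0.05 there was 1 of 43 chains in each of these comparisons. The share of all genes at that unadjusted level was not counted, here or below. The chain count past the threshold stayed 0 in every alternative fit. After fluvastatin at 12 h, 4 of 43 chains passed, against 0.874% of all genes, with 3 chains higher, against 0.348%, and 1 lower, against 0.527%. At 24 h of fluvastatin 5 of 43 passed, against 10.5% of all genes, with 2 higher, against 6.71%, and 3 lower, against 3.77%. At 48 h of zoledronate at 30 µM 5 of 43 passed, against 7.59%, with 3 higher, against 3.16%, and 2 lower, against 4.43%. At 100 µM of zoledronate 7 of 43 chains, 16.3%, passed, against 32% of all genes, with 5 higher, against 15.3%, and 2 lower, against 16.6%. So in every comparison at least 36 of the 43 chains did not pass, and the share of chains called lay near or under that of all genes except at 12 h of fluvastatin and at 48 h of zoledronate. The chain count at 12 h of fluvastatin was 0 without replicate 1, 2 or 4 and 1, COL8A1, without replicate 3, and without replicate 1 it was 2 at 24 h of fluvastatin and 2 at 48 h of zoledronate. Of 18417 genes, 0, 18, 37 and 51 passed at 12 h of fluvastatin without replicates 1, 2, 3 and 4, in place of 161. Without replicate 1, 299 in place of 1930 passed at 24 h of fluvastatin and 485 in place of 1397 at 48 h of zoledronate. The median chain moved little, by −0.09 at 24 h of fluvastatin, 0.06 at 48 h of zoledronate and 0.04 at 100 µM on the log2 scale, beside −0.01, 0.01 and 0.01 for all genes. The calls fell on 9 chains: COL6A1, COL6A2, COL6A3, COL7A1, COL13A1 and COL15A1 rose where they passed, and COL8A1, COL12A1 and COL25A1 fell. RNA was taken from whole dishes, so fewer cells with a transcript and less of it per cell cannot be told apart.

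COL6A1, the alpha 1 chain of collagen VI, had the largest rise. With zoledronate at 100 µM its signals were 9.81, 9.92, 9.69 and 9.77, against 8.59, 8.36, 8.34 and 8.45 in control cells. The groups did not overlap, and the rise was 1.36 ± 0.11 (SE) on the log2 scale, or 2.58-fold (limma, adjusted p = 1.6e-09, n = 4 each). With fluvastatin at 24 h its signals were 9.51, 9.20, 9.08 and 9.20, against 8.22, 8.75, 8.61 and 8.71 in control cells. Again the groups lay apart, with a rise of 0.68 ± 0.11 (limma, adjusted p = 0.00039), and the pair of replicate 1 gave the largest difference, 1.29, beside 0.45 to 0.50 in the others. With zoledronate at 30 µM for 48 h the signals were 8.94, 9.04, 8.91 and 8.72, against 8.06, 8.39, 8.41 and 8.38 in control cells, a rise of 0.59 ± 0.11 without overlap (limma, adjusted p = 0.0014). With fluvastatin at 12 h they were 8.88, 9.12, 9.10 and 8.97, against 8.34, 8.72, 8.53 and 8.72, again without overlap, and the rise of 0.44 ± 0.11 passed narrowly (limma, adjusted p = 0.049). It did not pass without the replicate block (adjusted p = 0.12). With zoledronate at 30 µM for 24 h the signals of 8.41, 8.88, 8.56 and 8.62 lay among those of the same control cells, and the difference was 0.04 ± 0.11 (95% interval −0.17 to 0.26).

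COL6A2, the alpha 2 chain, lies next to COL6A1 on chromosome 21 and carries the promoter shown above with 4 GC boxes. At 100 µM of zoledronate its signals were 8.74, 8.80, 8.79 and 8.83, against 8.30, 8.30, 8.41 and 8.38 in control cells. The groups lay apart and the rise was 0.44 ± 0.07 (limma, adjusted p = 2.9e-05). The 95% interval of the COL6A2 rise was 0.29 to 0.59, and that of the COL6A1 rise in the same arrays was 1.15 to 1.58. At 48 h of zoledronate at 30 µM COL6A2 had 8.59, 8.73, 8.68 and 8.60, against 8.22, 8.47, 8.49 and 8.57, also without overlap, but the difference of 0.21 ± 0.07 did not pass (limma, adjusted p = 0.072). With fluvastatin the differences were 0.17 at 12 h and 0.09 at 24 h, and neither passed.

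COL6A3, the large alpha 3 chain whose cleaved end is called endotrophin, passed in 3 comparisons while its groups overlapped in each. With fluvastatin at 24 h its signals were 7.23, 6.30, 6.67 and 6.69, against 6.60, 5.96, 6.26 and 6.45 in control cells. With zoledronate at 30 µM for 48 h they were 6.05, 6.73, 6.78 and 6.79, against 5.56, 6.25, 6.57 and 6.45 in control cells. With zoledronate at 100 µM they were 6.33, 6.82, 6.58 and 6.90, against 6.01, 6.41, 6.47 and 6.74. Replicates with the same number were high or low together, and all 4 pairs were higher in treated cells in each comparison. The rises were 0.40 ± 0.08, 0.38 ± 0.08 and 0.25 ± 0.08 in that order (limma, adjusted p = 0.003, 0.0056 and 0.021). They rest on the pairing: without the replicate block the adjusted p values for COL6A3 were 0.47, 0.57 and 0.60. Leaving out replicate 1 gave adjusted p = 0.074, 0.055 and 0.091 in the same order, and at 100 µM leaving out replicate 2 gave 0.14. The other type VI chains measured, COL6A5 and COL6A6, were near background and did not pass in any comparison.

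COL7A1 encodes the chain of the anchoring fibrils. With zoledronate at 100 µM its signals were 7.71, 7.54, 7.55 and 7.59, against 7.31, 7.18, 7.18 and 7.18 in control cells. The groups lay apart, the 4 pair differences ran only from 0.37 to 0.40, and the rise was 0.39 ± 0.06 (limma, adjusted p = 3.1e-05). With fluvastatin at 12 h COL7A1 had 7.80, 7.79, 7.99 and 7.70, against 7.41, 7.53, 7.74 and 7.53 in control cells, and at 48 h of zoledronate at 30 µM it had 7.40, 7.11, 7.31 and 7.10, against 6.97, 6.89, 7.14 and 7.01. Both of these pairs of groups overlapped, and the rises were 0.26 ± 0.06 and 0.23 ± 0.06 (limma, adjusted p = 0.044 and 0.027). Without the replicate block they had adjusted p = 0.34 and 0.22, and after centring each array on its median 0.056 and 0.054. At 48 h the rise in COL7A1 was 0.16 without replicate 1 (adjusted p = 0.24). At 24 h of fluvastatin the difference in COL7A1 was 0.19 ± 0.06 and did not pass (adjusted p = 0.057).

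COL13A1, the membrane-spanning chain found at adhesion sites, passed only at 100 µM of zoledronate among the 6 comparisons with control cells. Its signals there were 9.34, 9.32, 9.43 and 9.40, against 8.97, 9.00, 9.17 and 9.23 in control cells. The groups lay apart, with a rise of 0.28 ± 0.06 (limma, adjusted p = 0.00044). COL15A1, a basement membrane multiplexin whose mean over all arrays lay just above the background mark, passed only with fluvastatin at 12 h. It had 5.82, 5.82, 5.73 and 5.78 there, against 5.40, 5.38, 5.44 and 5.52 in control cells, groups that did not overlap. Of these control signals 3 lay under the mark, as did their mean of 5.44. The rise was 0.35 ± 0.08 (limma, adjusted p = 0.027, and 0.080 without the replicate block), and the COL15A1 difference at 24 h of fluvastatin was 0.04 ± 0.08.

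COL12A1, the FACIT chain that lies on the surface of type I fibrils, fell. With zoledronate at 100 µM its signals were 7.20, 7.19, 7.07 and 6.97, against 8.06, 8.26, 8.14 and 8.17 in control cells. The groups lay far apart, and COL12A1 was 2.07-fold lower, a log2 change of −1.05 ± 0.10 (limma, adjusted p = 1.4e-08). With fluvastatin at 24 h it had 6.65, 7.38, 6.94 and 7.20, against 7.69, 7.72, 7.45 and 7.47 in control cells, and at 48 h of zoledronate at 30 µM it had 7.76, 7.80, 7.50 and 7.81, against 8.30, 8.17, 8.15 and 8.10. Neither pair of groups overlapped, and the changes were −0.54 ± 0.10 and −0.46 ± 0.10 (limma, adjusted p = 0.0011 and 0.0042). Replicate 1 of fluvastatin at 24 h had the lowest COL12A1 signal of all 40 arrays. With fluvastatin at 12 h the COL12A1 signals of 7.33, 7.38, 7.42 and 7.45 all lay under the control signals of 7.75, 7.73, 7.58 and 7.63, but the change of −0.28 ± 0.10 did not pass (limma, adjusted p = 0.17).

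COL8A1, a short-chain collagen of the matrix under endothelium and around vessels, fell in the same 3 comparisons and at 12 h of fluvastatin. With zoledronate at 100 µM its signals were 5.09, 4.72, 4.67 and 5.09, against 6.40, 6.01, 6.01 and 6.15 in control cells. The control signals stood above the background mark of 5.46 and all 4 treated signals under it. The measured change was −1.25 ± 0.11 (limma, adjusted p = 5.6e-09). Taken from the control mean only down to that mark, COL8A1 was at least 1.60-fold lower, a floor that carries no error and depends on the mark. With fluvastatin COL8A1 had 5.23, 5.17, 5.45 and 5.16 at 12 h, against 5.93, 5.81, 5.56 and 5.62 in control cells, and 5.12, 5.31, 4.86 and 5.19 at 24 h, against 5.93, 5.74, 5.43 and 5.39. With zoledronate at 30 µM for 48 h it had 5.44, 5.42, 5.38 and 5.16, against 6.26, 5.75, 5.55 and 5.50. None of these groups overlapped, and the measured changes in COL8A1 were −0.48 ± 0.11, −0.50 ± 0.11 and −0.42 ± 0.11 (limma, adjusted p = 0.034, 0.0041 and 0.018). All treated signals in these 3 comparisons also lay under the mark, as did 2 of the 4 control signals at 24 h. From the control means down to the mark COL8A1 was at least 1.20-fold, 1.12-fold and 1.24-fold lower in the same order, floors with the same limits. Without the replicate block the first and the last did not pass (adjusted p = 0.20 and 0.12), and without replicate 1 the change was −0.40 at 24 h of fluvastatin and −0.28 at 48 h of zoledronate (adjusted p = 0.096 and 0.20). COL8A2, the partner chain at 6.66, passed in no comparison.

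**Figure D2:**
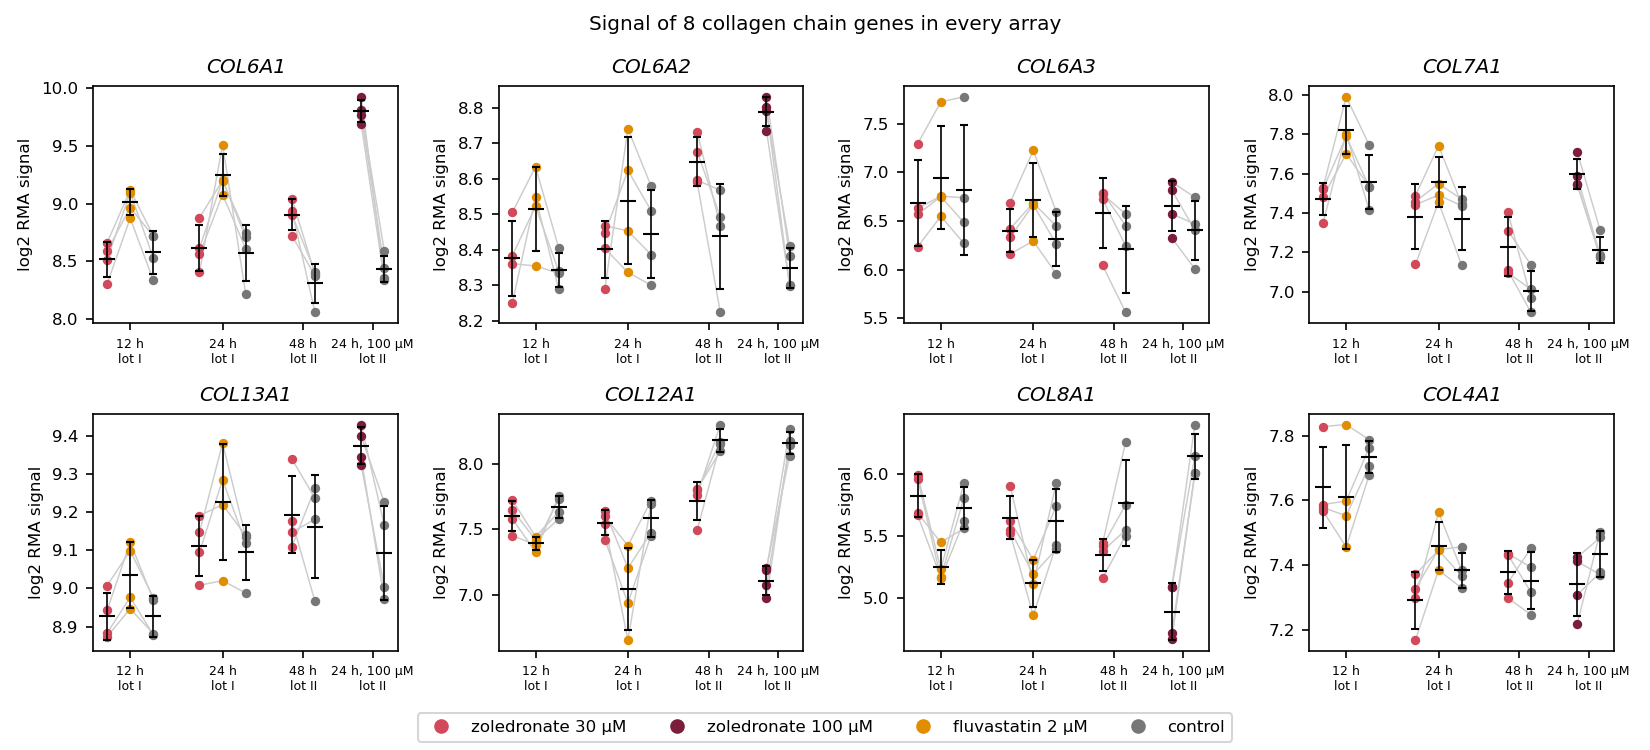
Log2 RMA signal (vertical axis) of 8 collagen chain genes in every array, 1 point per array and 4 arrays per group, with treated groups left of the controls of the same lot and time (horizontal axis), black bars for the mean ± SD and grey lines between arrays of the same replicate number. COL6A1 stands above and COL12A1 and COL8A1 below control in all 4 arrays with fluvastatin at 24 h, zoledronate at 30 µM for 48 h and zoledronate at 100 µM.

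The type IV and fibrillar chains gave no call among expressed members. COL4A1 had 7.22, 7.41, 7.31 and 7.42 at 100 µM of zoledronate, against 7.50, 7.37, 7.38 and 7.49 in control cells, and COL4A2 had 8.18, 8.27, 8.25 and 8.31, against 8.30, 8.25, 8.21 and 8.37. Both overlapped, and the differences were −0.09 (95% interval −0.22 to 0.03) for COL4A1 and −0.03 (−0.13 to 0.07) for COL4A2. Among the 11 fibrillar chains 0 passed in each of the 6 comparisons in limma, with 0 to 3 at an unadjusted p under 0.05. COL1A1 had 7.31, 7.19, 7.34 and 7.18 at 100 µM, against 7.14, 7.34, 7.27 and 7.22, and COL1A2 had 5.99, 6.01, 6.14 and 6.04, against 6.15, 5.89, 6.11 and 5.99. These groups overlapped fully, with differences of 0.01 (−0.12 to 0.15) for COL1A1 and 0.01 (−0.17 to 0.18) for COL1A2. COL5A1, which sets the width of fibrils, differed by 0.02 and COL18A1 by 0.13 at 100 µM, and neither passed. Of the 16 chains near background 1 passed in 1 comparison, COL25A1, a membrane-spanning chain with a mean of 5.24. It had 4.85, 5.33, 5.14 and 5.06 with fluvastatin at 24 h, against 5.29, 5.40, 5.27 and 5.38 in control cells, overlapping groups that both lay wholly under the mark, with a measured difference of −0.24 ± 0.08 (limma, adjusted p = 0.047, and 0.18 without the replicate block).

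By class, the 8 beaded filament and anchoring chains, which are COL6A1, COL6A2, COL6A3, COL6A5, COL6A6, COL7A1, COL26A1 and COL28A1, had 4 rises and no fall at 100 µM, a median change of 0.22 beside 0.01 for all genes. This class joins the type VI chains with chains of other types. All classes were chosen with results of these data known, so their counts describe the members and do not test a class. Of the 9 network chains 1 fell (COL8A1), of the 10 FACIT chains 1 fell (COL12A1), and of the 3 transmembrane chains 1 rose (COL13A1) in that comparison, where 15.3% of all genes rose and 16.6% fell. There are 7 pairs of chain genes that neighbour each other among protein-coding genes. In 1 pair, COL6A1 with COL6A2, both members passed at 100 µM, and no member passed in the other 6 pairs, which include COL4A1 with COL4A2 and COL3A1 with COL5A2.

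**Figure D3:**
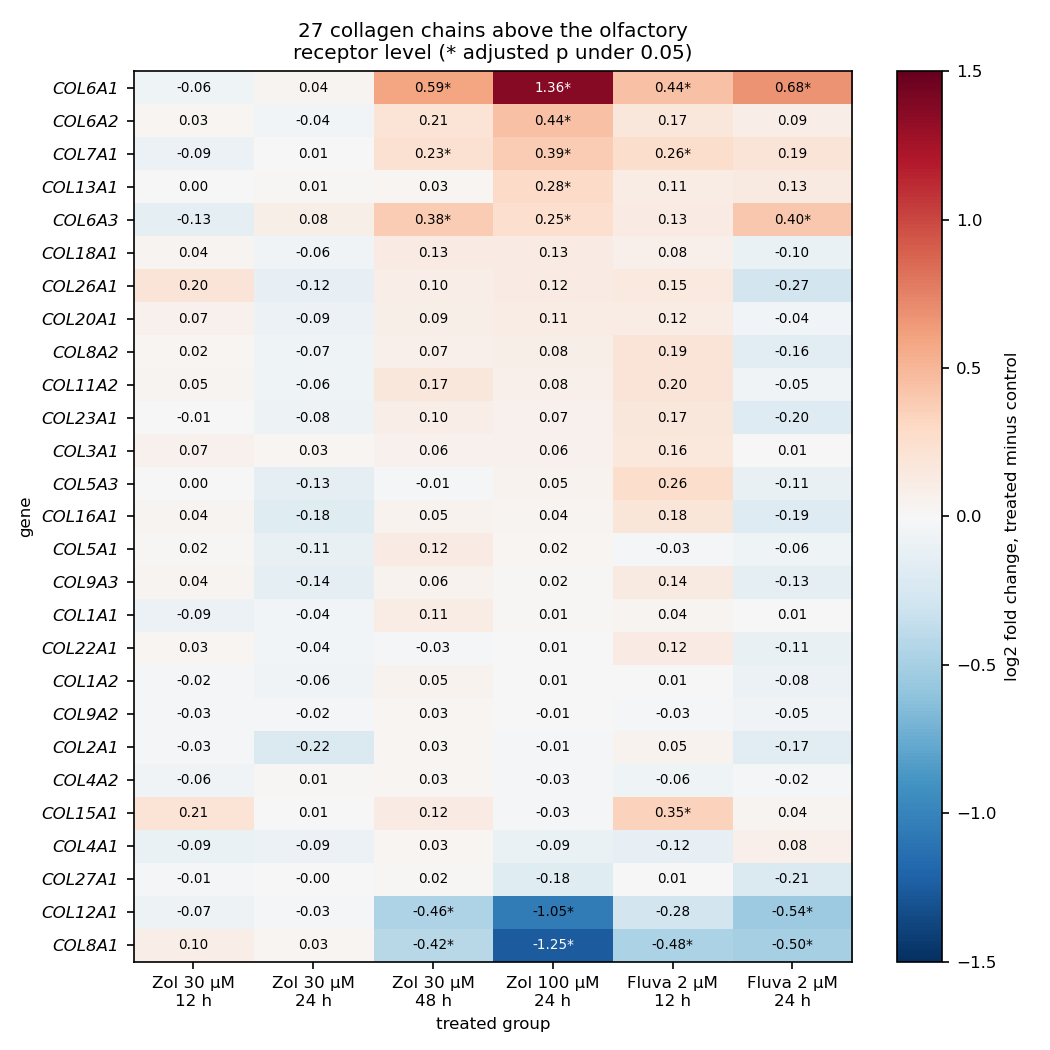
Log2 fold change, treated minus control (colour and printed value), of the 27 chains above the olfactory receptor mark (rows) in the 6 treated groups (columns), with an asterisk where the adjusted p in limma was under 0.05. Most rows are pale, and the strong colours sit in COL6A1, COL8A1 and COL12A1.

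The agents were set against each other within lot I, fluvastatin at 2 µM minus zoledronate at 30 µM, doses that the design text matches by their effect on the cells after a longer treatment. Both share the same control cells, and the control cancels in this difference. All fluvastatin signals of COL8A1 lay under the background mark, so its differences here are measured values only. At 12 h 3 of 43 chains passed, against 0.738% of all genes. COL6A1 was higher with fluvastatin by 0.50 ± 0.11 and COL7A1 by 0.35 ± 0.06, and COL8A1 was lower by −0.57 ± 0.11 (limma, adjusted p = 0.026, 0.011 and 0.014). None of the 3 passed without the replicate block (adjusted p = 0.078, 0.12 and 0.090) or without replicate 1 (adjusted p = 0.23, 0.17 and 0.19), and leaving out any 1 replicate left 0 or 1 call. Of all 18417 genes 136 passed in the main fit, 14 without the block, and 1 to 53 with 1 replicate left out. At 24 h 4 of 43 passed, against 7.23%. COL6A1 was higher with fluvastatin by 0.63 ± 0.11 and COL6A3 by 0.32 ± 0.08, while the differences were −0.51 ± 0.10 for COL12A1 and −0.53 ± 0.11 for COL8A1 (limma, adjusted p = 0.0012, 0.019, 0.003 and 0.0044). COL6A3 did not pass without the replicate block (adjusted p = 0.70), and without replicate 1 neither COL6A3 nor COL8A1 did (adjusted p = 0.26 and 0.090). Between 12 h and 24 h of fluvastatin the effects on the chains gave 0 calls in limma, where 0% of all genes passed. At an unadjusted p under 0.05 there were 13 chains, with no count over all genes to set beside them.

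Dose and time were compared across the lots as differences of effects, each against its own controls. The effect of zoledronate at 24 h was larger at 100 µM than at 30 µM for 6 of 43 chains, against 20.3% of all genes. The difference of effects was 1.32 ± 0.15 for COL6A1, 0.48 ± 0.10 for COL6A2, 0.38 ± 0.09 for COL7A1, 0.27 ± 0.08 for COL13A1, −1.02 ± 0.14 for COL12A1 and −1.28 ± 0.15 for COL8A1 (limma, adjusted p = 2e-06, 0.0012, 0.0034, 0.022, 1.1e-05 and 3.2e-06). COL7A1 and COL13A1 did not pass without the replicate block (adjusted p = 0.054 and 0.12), and COL13A1 did not pass without replicate 1, 2 or 3 (adjusted p = 0.14, 0.088 and 0.070). Between 48 h and 24 h of zoledronate at 30 µM 0 of 43 chains passed in limma, against 0.407% of all genes. At an unadjusted p under 0.05 there were 8 chains, a level at which all genes were not counted. The largest differences of effects there were 0.55 ± 0.15 for COL6A1, −0.44 ± 0.15 for COL8A1 and −0.43 ± 0.14 for COL12A1 (limma, adjusted p = 0.091, 0.17 and 0.15). With array weights 3 chains passed in that contrast and with an intensity trend 1, beside 651 and 214 of all 18417 genes. All COL8A1 signals at 100 µM and at 48 h of zoledronate lay under the background mark. Lot cannot be told apart from dose or time in these contrasts, and the control levels of COL12A1 and COL8A1 differed between lots as given above.

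Markers of other cell types were set beside the calls. At 100 µM of zoledronate the mean signal of the 10 fibroblast markers was 4.93 to 5.05 per array, against 4.87 to 4.92 in control cells, and that of the 5 endothelial markers was 5.40 to 5.68, against 5.27 to 5.42. At 48 h of zoledronate at 30 µM the endothelial markers had 5.53 to 5.57, against 5.24 to 5.52, and the fibroblast markers 4.85 to 5.11, against 4.84 to 4.96. At 24 h of fluvastatin the endothelial markers had 5.37 to 5.60, against 5.30 to 5.39, and the fibroblast markers 4.84 to 5.03, against 4.85 to 5.03. At 12 h of fluvastatin the endothelial markers had 5.27 to 5.46, against 5.29 to 5.41, and the fibroblast markers 4.85 to 5.05, against 4.90 to 4.98. Among these pairs of groups, those of the fibroblast markers at 100 µM and of the endothelial markers at 48 h did not overlap. DCN, LUM, FAP and POSTN stayed far under the background mark, while PDGFRB at 6.09 and THY1 at 5.55, as means over all arrays, lay above it. The part of the small marker shifts in the chain results was not tested.

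Enzymes that fold and modify new chains were read out from the same fit. Of 19 measured, 6 rose and 2 fell at 100 µM of zoledronate, where 15.3% of all genes rose and 16.6% fell. P4HA1 and P4HA2, catalytic subunits of the prolyl 4-hydroxylases that stabilise the helix, rose by 1.52 ± 0.10 and 1.20 ± 0.11 (limma, adjusted p = 2.2e-10 and 1.2e-08). P4HA1 had 10.10, 10.44, 10.42 and 10.39 there, against 8.85, 8.58, 8.82 and 9.02 in control cells. The lysyl hydroxylases PLOD1 and PLOD2 rose by 0.68 ± 0.07 and 0.64 ± 0.09 (limma, adjusted p = 7.8e-08 and 2.5e-06). P3H2, a prolyl 3-hydroxylase that acts on type IV collagen, had 8.39, 8.37, 8.26 and 8.24, against 9.71, 9.71, 9.65 and 9.71, a change of −1.38 ± 0.08 (limma, adjusted p = 1e-10). The P3H2 groups lay more than a log2 unit apart, while SERPINH1, the collagen chaperone HSP47, had 9.81, 9.80, 9.69 and 9.82, against 9.76, 9.68, 9.53 and 9.84, without passing. At 48 h of zoledronate at 30 µM 4 of the 19 rose and 1 fell, against 3.16% and 4.43% of all genes. At 24 h of fluvastatin 1 rose and 2 fell, against 6.71% and 3.77%, and at 12 h, where 0.527% of all genes fell, P3H2 alone fell, by 0.35 (limma, adjusted p = 0.044, and 0.45 without the replicate block). Without the block the counts of modifying enzymes called were 2 in place of 5 at 48 h and 2 in place of 3 at 24 h of fluvastatin, where leaving out replicate 1 gave 1. All genes called without the block were 349 in place of 1397 and 663 in place of 1930. Without replicate 1 the latter count was 299.

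Of 14 crosslinking and processing enzymes, 5 rose and 3 fell at 100 µM, against 15.3% and 16.6% of all genes. At 48 h of zoledronate at 30 µM 2 of the 14 rose and none fell, against 3.16% and 4.43%, and at 24 h of fluvastatin 4 rose and 3 fell, against 6.71% and 3.77%. The falls with fluvastatin include TLL1, with means of 4.33 and 4.64 in control cells, and all its signals in both groups lay under the background mark. LOX, the lysyl oxidase that crosslinks fibrils, had 9.74, 10.08, 10.02 and 10.00 at 100 µM, against 8.27, 8.33, 8.41 and 8.56 in control cells. It rose by 1.57 ± 0.14 (limma, adjusted p = 1.2e-08), LOXL1 by 0.62 ± 0.07 and LOXL4 by 0.62 ± 0.09, BMP1, which trims procollagen, by 0.46 ± 0.08, and TGM2, a transglutaminase, changed by −0.78 ± 0.10 (limma, adjusted p = 1.6e-07, 1.3e-05, 8.2e-05 and 1.1e-06). LOXL2 differed by −0.04, which did not pass. LOXL4 rose also with fluvastatin at 24 h, by 0.75 ± 0.09 (limma, adjusted p = 5.2e-05). The count of 7 there was 3 without the replicate block and 2 without replicate 1, and that of 2 at 48 h was 0 in both. In these fits 663 and 299 of all genes were called at 24 h of fluvastatin, in place of 1930. At 48 h the numbers were 349 and 485, in place of 1397. LOX was among those lost, with adjusted p = 0.14 at 24 h of fluvastatin and 0.13 at 48 h without the block, and its rise at 48 h was 0.25 without replicate 2.

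Of 10 collagen receptors 4 rose and none fell at 100 µM, against 15.3% and 16.6% of all genes: the integrin chains ITGA10 and ITGA2, the receptor kinase DDR1 and the endocytic receptor MRC2, which takes up cleaved collagen. DDR1 rose by 0.45 ± 0.08 and MRC2 by 0.32 ± 0.07 (limma, adjusted p = 4.6e-05 and 0.00077), while ITGA11 at −0.05 and DDR2 at −0.21 did not pass. ITGA10 rose by 2.41 ± 0.20 and ITGA2 by 1.07 ± 0.14 (limma, adjusted p = 3.7e-09 and 3e-06). At 48 h 3 of the receptors rose, against 3.16% of all genes, and at 24 h of fluvastatin 2 did, against 6.71%. Of 7 collagenases 4 passed upward at 100 µM and 2 each at 48 h and at 24 h of fluvastatin, against 15.3%, 3.16% and 6.71% of all genes. At 100 µM MMP14, a membrane-bound collagenase, was higher by 0.87 ± 0.10, CTSK by 0.51 ± 0.14, MMP13 by 0.36 ± 0.10 and MMP1 by 0.22 ± 0.08 (limma, adjusted p = 4e-07, 0.0049, 0.0075 and 0.031). All signals of MMP13 in both groups and all 4 control signals of CTSK lay under the background mark, and no fold is given for MMP13. By its treated mean CTSK was at least 1.12-fold above the mark, a floor that carries no error and depends on the mark. MMP13 was also called at 24 h of fluvastatin, where all its signals in both groups again lay under the mark. MMP1 did not pass without the replicate block (adjusted p = 0.75). At 48 h MMP1 rose by 0.77 ± 0.08 (limma, adjusted p = 5.1e-06, and 0.34 without the replicate block). Both MMP14 calls outside 100 µM, 0.51 at 48 h and 0.44 at 24 h of fluvastatin, missed the threshold without the block (adjusted p = 0.052 and 0.079), which left no collagenase called in either. Of all genes 349 in place of 1397 and 663 in place of 1930 were called there. Without replicate 1 the MMP14 rise at 24 h of fluvastatin was 0.27, and 2 collagenases and 5030 of all genes were called at 100 µM. Without replicate 4 the MMP13 difference at 100 µM was 0.23. The lists were chosen with results of these data known.

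**Figure D4:**
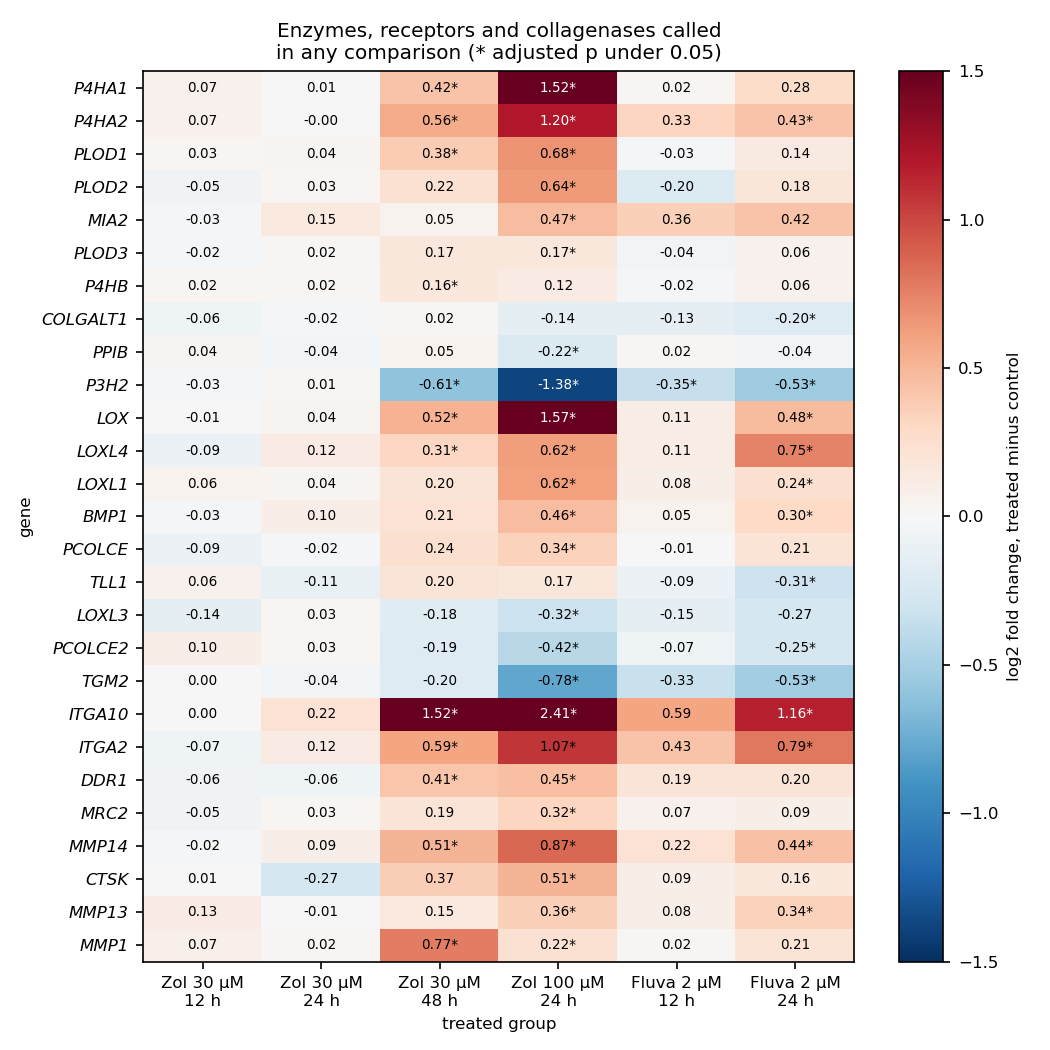
Log2 fold change, treated minus control (colour, which stops at 1.5, and printed value), of 27 of the 50 measured genes that fold, crosslink, bind or cleave collagen (rows) in the 6 treated groups (columns), with an asterisk where the adjusted p in limma was under 0.05. The columns of zoledronate at 30 µM for 12 h and 24 h hold no asterisk, and P3H2 is the deepest fall.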

How the data were processed

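The deposited values are log2 signals per probe set, made by the authors with RMA (background correction, quantile normalization and summary) in Affymetrix Power Tools 1.10.2, per the submitters' processing notes. The genome build, and whether both lots were normalized together, were not given in the sources used here. Probe sets with 1 annotated symbol were used (19460 of 33297, while 1754 had several and 12083 were not listed), and 19429 matched RefSeq by gene number. For the 769 genes with several the brightest was kept. Limma 3.58.1 in R 4.3.3 fitted 16 blocks (lot, time and replicate number) and 6 effects over 40 arrays, with 18 residual degrees of freedom, two-sided, Benjamini-Hochberg over 18417 genes. The design text states the pairing by day. Deviations of same-numbered treated and control arrays correlated at 0.17 to 0.60 in lot I, but at −0.30 to 0.55 in lot II, where the pairing rests on that text alone. The fit was tested on simulated data, which cannot show whether the arrays of this series were paired. Members, lists and the rule for named genes (all chains that passed, 13 chains and 13 other genes in any case, and up to 4 list members by smallest p) were chosen with earlier results of these data known. COL17A1, COLGALT2 and ITGA1 were not analysed here, nor was 1 probe set that COL1A2 shares with another gene. The number of arrays limits the precision. Alternatives were other block terms, scalings, filters, variance settings and arrays left out.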

Additional observations from a re-analysis of the deposited data

Results flagged for a closer look

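Among 20 sets of 4 pair differences in expressed chains that passed against control, 2 held 1 pair whose gap to the others exceeded Dixon's critical value. The sets were chosen by passing and some share arrays, so no rate by chance can be set beside that count. For COL6A1 with fluvastatin at 24 h the pair of replicate 1 differed by 1.29 and the others by 0.45 to 0.50. For COL8A1 at 100 µM of zoledronate the pair of replicate 4 differed by −1.06 and the others by −1.34 to −1.29.

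The effect of zoledronate at 24 h differed between 100 µM and 30 µM by the contrast of both effects for 6 chains. The difference was 1.32 for COL6A1, 0.48 for COL6A2, 0.38 for COL7A1, 0.27 for COL13A1, −1.02 for COL12A1 and −1.28 for COL8A1. All COL8A1 signals at 100 µM lay under the background mark. The doses were run in different lots, so dose and lot cannot be told apart.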

How the results depend on the processing

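Over the 6 comparisons and 5 contrasts, 33 values of the 27 expressed chains passed. All kept their direction under each of 13 alternatives, 12 stayed past the threshold in all of them, and 21 missed it in at least 1. Those 12 are the values at 100 µM against control of COL6A1, COL6A2, COL7A1, COL8A1, COL12A1 and COL13A1, the dose contrasts of COL6A1, COL6A2, COL8A1 and COL12A1, and the agent contrasts at 24 h of COL6A1 and COL12A1. Of 264 values that did not pass, 5 did in some alternative.

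Without the replicate block, the chain counts were 0 in place of 4 for fluvastatin at 12 h, 3 in place of 5 for fluvastatin at 24 h, 2 in place of 5 for zoledronate at 48 h, and 0 in place of 3 for the agents at 12 h. Counts over all 18417 genes fell as well. In the same order these were 20, 663, 349 and 14, in place of 161, 1930, 1397 and 136. With the block as a random effect the 48 h count was 3, and 1159 of all genes were called. Fitting only the arrays compared gave 0 for fluvastatin at 12 h and 24 h and for zoledronate at 48 h, with fewer samples to estimate the spread. Of all 18417 genes, 14, 2 and 0 were called in those fits. Median centring gave 2 for fluvastatin at 12 h, where 167 of all genes were called in place of 161. It also moved the share of higher calls among all genes there to 26.3%, against 39.8%, and at 48 h to 28.7%, against 41.7%. For the effect at 48 h against 24 h, array weights gave 3 and an intensity trend 1 in place of 0. Of all genes 651 and 214 were called there, in place of 75. Leaving out 1 replicate gave 0 to 1 for fluvastatin at 12 h, 2 to 6 for fluvastatin at 24 h, 2 to 6 for zoledronate at 48 h, 6 to 8 at 100 µM, 0 to 1 for the agents at 12 h and 2 to 4 for the agents at 24 h, and the low ends at 24 h and 48 h came without replicate 1. In that order all genes gave 0 to 51, 299 to 1906, 485 to 1672, 4875 to 5101, 1 to 53 and 146 to 1289. The number of chains called expressed was 27, and 12 above the median of all genes or 4 above the keratin-associated protein mark, an alternative added after seeing the data.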
